A study of Mus musculus with 23 samples.

Results

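The nuclear genes for the protein subunits of oxidative phosphorylation were described in 2 muscles of mice kept in 3 kinds of housing. The members were all probe sets that the array's annotation assigned to exactly 1 gene with a symbol beginning Ndufa, Ndufb, Ndufc, Ndufs or Ndufv followed by a digit, the symbols Sdha, Sdhb, Sdhc and Sdhd, and those beginning Uqcr, Cox4 to Cox8, or Atp5 with a further letter. This rule used names only and no measured value. The complex was also read from the start of the symbol, which put Ndufa4 in complex I and Cox7a2l in complex IV. The rule took 147 of the 22626 probe sets on the array, for 78 genes: 65 probe sets (33 genes) of complex I, 7 (4 genes) of complex II, 15 (8 genes) of complex III, 32 (16 genes) of complex IV and 28 (17 genes) of complex V. A further 7 probe sets with such a symbol beside other genes were left out.

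All animals were male C57/BL6 mice, 19 to 20 weeks old, and no transgene or drug was named for any group. Flown mice (BION Flown, BF) spent 30 days in orbit on the BION-M1 biosatellite, BION Ground mice (BG) lived for 30 days on the ground in a copy of the satellite's habitat, and Flight Control mice (FC) stayed in a standard animal facility for the same period. The longissimus dorsi (LD), a back muscle that holds posture, was measured in 5 BF, 5 FC and 5 BG samples, and the tongue (TN) in 3 BF, 2 FC and 3 BG samples, 1 Affymetrix array per sample and 23 arrays in all. Flown muscles were frozen hours after landing, so BF differs from both ground groups in launch, landing and time to sampling as well as in weight. Whether a mouse gave both muscles was not stated in the sources used here.

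Oxidative phosphorylation makes most of the ATP of a working muscle fibre. Complex I (NADH dehydrogenase) and complex II (succinate dehydrogenase) pass electrons to ubiquinone, complex III (cytochrome bc1) passes them on to cytochrome c, complex IV (cytochrome c oxidase) hands them to oxygen, and complex V (ATP synthase) spends the resulting proton gradient. Subunits encoded in the mitochondrial genome fell outside the rule. Slow and oxidative fibres hold more of these complexes than fast glycolytic fibres. Complex IV has several subunits that exist as a heart and muscle form and as a form of most other tissues, among them COX6A, COX7A and COX8.

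These were among the brightest transcripts on the arrays. The values are log2 signals, so that a difference of 1 is a 2-fold change. The median member had a log2 level of 12.2 over the 23 arrays, against 6.56 for all probe sets, and 85 of 147 members (57.8%) lay at or above 12, against 1.93% of all probe sets. The 13 members below the median of all probe sets included Cox4i2 and Cox6b2, isoforms best known from lung and testis, and secondary probe sets of genes whose other probe sets were bright, such as Ndufa12 (1425919_at, 3.93) and Cox7c (1459884_at, 3.43). Levels of different probe sets are not compared further, since each probe set has its own affinity.

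LD BG replicate 5 stood apart from the other arrays. Its SD around the mean of its group was 0.356 over all probe sets, against 0.149 to 0.254 for the other LD arrays. It lay below the other 4 BG arrays in 108 of 147 members (73.5%), against 36.3% of all probe sets, and its median difference from them was -0.29 for members and -0.06 for all probe sets. The 9 macrophage markers measured averaged 10.2 in log2 level on that array, against 8.01 to 8.58 on the other BG arrays, 7.18 to 8.87 in BF and 7.53 to 8.57 in FC, and none of those markers was at 0. The part of other cells in its low member values was not tested. The 6 skeletal muscle markers averaged 14.1 to 14.2 on the LD BG arrays, replicate 5 included, and also in LD BF and LD FC. In bulk tissue, fewer fibres and less RNA per fibre cannot be told apart. Counts of members and of list genes that rest on the LD BG arrays are given with and without replicate 5.

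**Figure D1:**
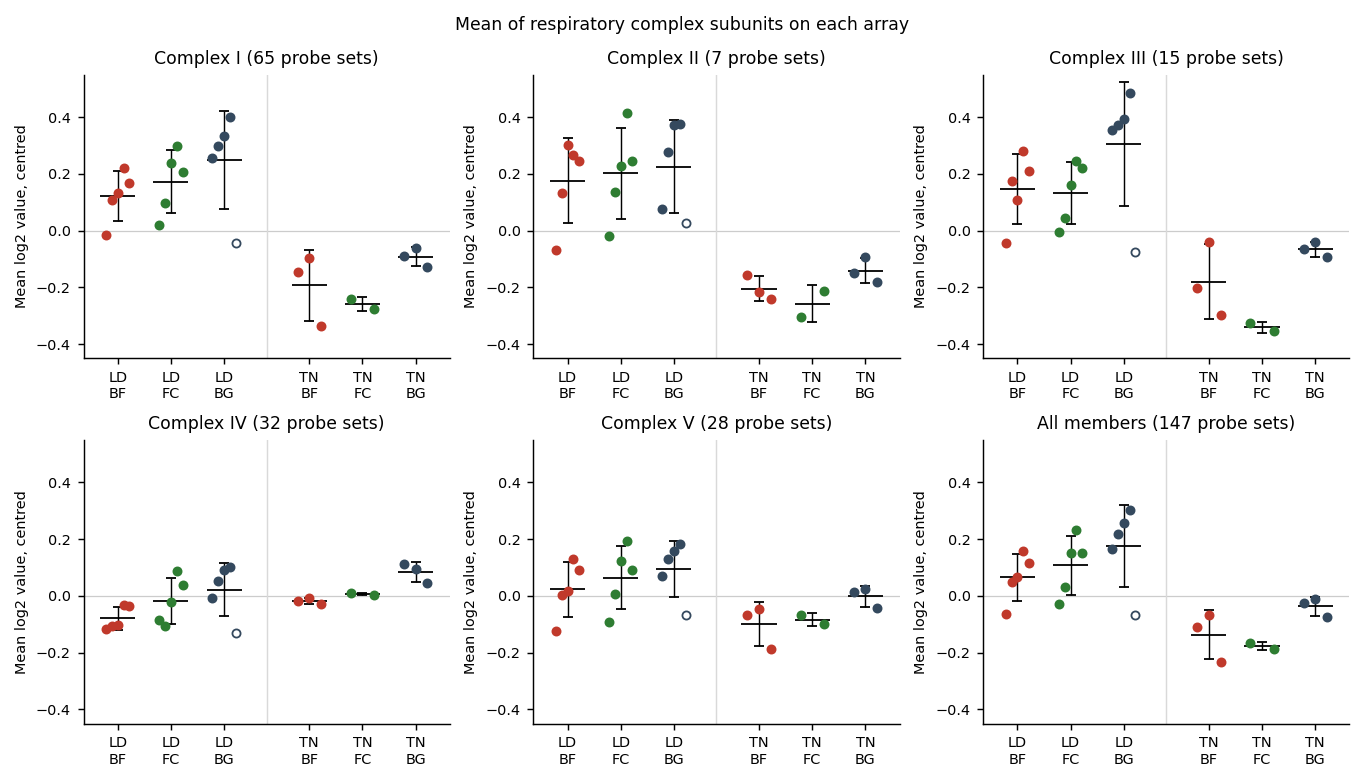
Mean log2 level of the member probe sets of each complex, by array, after subtracting each probe set's mean over the 6 groups (y axis, log2 units). Dots are arrays, in the order BF, FC, BG for LD and then TN; lines are group means, bars are SD (n = 5 in each LD group; 3, 2 and 3 in TN BF, FC and BG), and the open circle is LD BG replicate 5. Complex I averages lie between -0.04 and 0.40 in LD and between -0.33 and -0.06 in TN, and LD BG replicate 5 is the lowest LD BG array in each panel.

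The first question was whether 30 days in orbit changed these transcripts in LD. In BF against BG, 8 of 147 members were called by limma at adjusted p under 0.05, all of them lower in BF, against 10.2% of all probe sets called in either direction. The 8 members are 5.44% of the members, and 3.83% of all probe sets were called lower. Quantile normalization within the muscle gave 8 lower and 4 higher calls. In all, 49 members (33.3%) had an unadjusted p under 0.05, against 24.9% of all probe sets. The median change of the members was -0.13, against -0.03 over all probe sets, and 117 of 147 changes (79.6%) were negative, against 55.7% of all probe sets. No member passed 2-fold in this or any other comparison within a muscle. The called probe sets stood for Ndufa7, Ndufb7, Ndufb1 and Ndufb11 of complex I and Atp5g2 of complex V. For Ndufb7, 1 of 2 probe sets was called (the other -0.26), and for Ndufb11 1 of 3 (all 3 between -0.24 and -0.13). For Atp5g2 it was 1 of 2, and the other, a dim one, had -0.06.

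Ndufa7 encodes a small accessory subunit of complex I. Its probe set 1450818_a_at read 12.12, 12.17, 12.02, 12.13 and 12.10 in LD BF, 12.05, 12.20, 12.14, 12.28 and 12.32 in LD FC, and 12.49, 12.50, 12.48, 12.53 and 12.15 in LD BG. Every BF array lay below BG replicates 1 to 4, and the groups met only at BG replicate 5. The BF minus BG difference was -0.32 ± 0.08 (SE), adjusted p = 0.0139 by limma, and it passed under every alternative run, with adjusted p between 0.000486 and 0.0411. Of the 5 probe sets of Ndufa7, 4 were called, with differences of -0.28 to -0.32, and the other (1422976_x_at) had -0.32 at adjusted p = 0.053. They share 1 gene, and the 3 whose names end in x_at can also bind related transcripts, so they are not independent readings. 3 members were lower in every BF array than in any BG array, against 2.71% of all probe sets: 2 probe sets of Ndufa7 and that of Ndufa2, another accessory subunit, which was not called (adjusted p = 0.0663).

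Ndufb7 (1448331_at), a subunit of the membrane arm of complex I, read 11.37, 11.50, 11.55, 11.50 and 11.54 in LD BF, 11.56, 11.50, 11.68, 11.64 and 11.59 in LD FC, and 11.95, 11.91, 12.07, 11.86 and 11.39 in LD BG. BF replicates 1 to 5 were all below BG replicates 1 to 4, while BG replicate 5 was among the BF values (difference -0.34 ± 0.10 (SE), adjusted p = 0.0279 by limma). Ndufb1, a small subunit of the same arm, had the same arrangement. It read 7.41, 7.64, 7.67, 7.79 and 7.63 in LD BF, 7.45, 7.68, 7.79, 7.86 and 7.79 in LD FC, and 8.23, 8.12, 8.05, 8.20 and 7.52 in LD BG (BF minus BG -0.40 ± 0.12, adjusted p = 0.0429). Atp5g2 (1415980_at), 1 of 3 genes for the c subunit of the ATP synthase rotor, read 11.98, 12.10, 12.08, 12.11 and 11.95 in BF, against 12.32, 12.41, 12.33, 12.48 and 12.09 in BG. The groups again met only at BG replicate 5. Its difference was -0.28 ± 0.08 (adjusted p = 0.0304), and that of Ndufb11 (1416056_a_at) was -0.24 ± 0.08 (adjusted p = 0.0442).

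**Figure D2:**
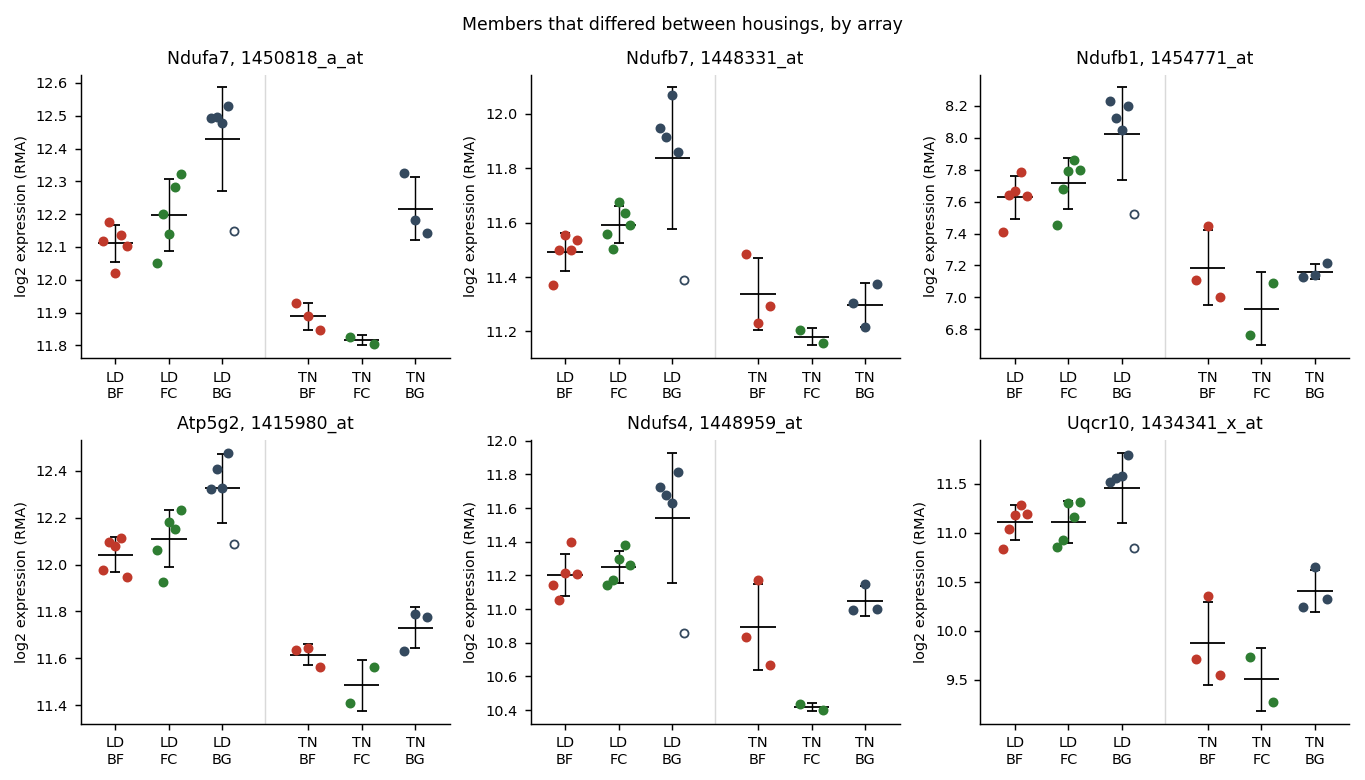
Log2 levels by array for Ndufa7 (1450818_a_at), Ndufb7 (1448331_at), Ndufb1, Atp5g2 (1415980_at), Ndufs4 (1448959_at) and Uqcr10 (1434341_x_at). Dots are arrays in the order BF, FC, BG for LD and then TN; lines are group means, bars are SD, and the open circle is LD BG replicate 5. LD BG replicates 1 to 4 lie above all LD BF arrays for Ndufa7, Ndufb7 and Ndufb1, and replicate 5 does not.

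By complex, the median LD differences between BF and BG were close to each other in I, III, IV and V, and contrasts between complexes were not tested. Of the 7 calls in complex I, 4 were probe sets of Ndufa7. Over all probe sets, 3.83% were called lower. Median changes were -0.14 for complex I (7 of 65 called lower), 0.03 for complex II (0 of 7 called), -0.16 for complex III (0 of 15 called, 14 of 15 negative), -0.11 for complex IV (0 of 32 called, 27 of 32 negative) and -0.13 for complex V (1 of 28 called lower). The mean over the complex I members, after centring each probe set on its mean over the 6 groups, was 0.12 ± 0.09 in BF, 0.17 ± 0.11 in FC and 0.25 ± 0.17 in BG (SD, n = 5 each), so the groups overlapped. The count was smaller without most single arrays: 1 member was called when either BG replicate 1 or 4 was left out, 2 when BG replicate 2 was, and 3 when it was BG replicate 3 or BF replicate 3, 4 or 5. Without BF replicate 1, 5 were called.

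Without LD BG replicate 5 more members were called. In BF against BG 48 members were then called, 44 lower and 4 higher, against 17.1% of all probe sets in either direction and 7.62% lower; the 44 are 29.9% of the members and stand for 30 genes. The lower calls were 23 of 65 in complex I, 1 of 7 in complex II, 6 of 15 in complex III, 7 of 32 in complex IV and 7 of 28 in complex V, and the median change was -0.19, against -0.04 over all probe sets. Uqcr10, a small accessory subunit of complex III, had the largest fall, at -0.74 ± 0.16 (SE; 1434340_at, adjusted p = 0.00309 by limma). The arrays behind it read 10.29, 10.95, 10.84, 11.10 and 11.15 in BF, against 11.45, 11.59, 11.48, 11.90 and, left out here, 10.61 in BG. Ndufs4, an accessory subunit whose loss causes Leigh-like disease in mice, fell by 0.51 (1448959_at, adjusted p = 0.00097) and Sdhd, a membrane anchor of complex II, by 0.47 (1428235_at, adjusted p = 0.00115). Sdhd lay between 11.51 and 11.65 in BF, against 11.97 to 12.13 in BG replicates 1 to 4, with replicate 5 at 11.28. With all arrays Sdhd was not called (-0.32, adjusted p = 0.107).

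In this larger set the lower calls stood for 5 genes of complex IV and 6 of complex V, beside 14 of complex I. All 3 probe sets of Cox7a2l were lower, at -0.37 to -0.46 (1432263_a_at: -0.46, adjusted p = 0.0013). Cox8b, the heart and muscle form of COX8, was lower at -0.30 (adjusted p = 0.00797) and Cox6b1 at -0.28. A dim probe set of Cox5b (1436149_at) and 1 of Cox7a2 (1416971_at), a form of most tissues, were each lower at -0.33. The other probe sets of Cox5b and Cox7a2 were not called. In complex V, Atp5mpl was lower at -0.43 and Atp5g2 at -0.34, and the probe sets of Atp5k, Atp5l, Atp5h and Atp5j2 that were called had changes of -0.24 to -0.33. The 4 higher calls were 2 probe sets of Ndufa12 (0.25 and 0.26), 1 of Cox5a (0.28) and 1 of Atp5a1 (1420037_at, 0.54, adjusted p = 0.0155). The other 2 probe sets of Atp5a1, both brighter, were not called. The enzyme core of complex II, Sdha and Sdhb, was not called, with or without the array.

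**Figure D3:**
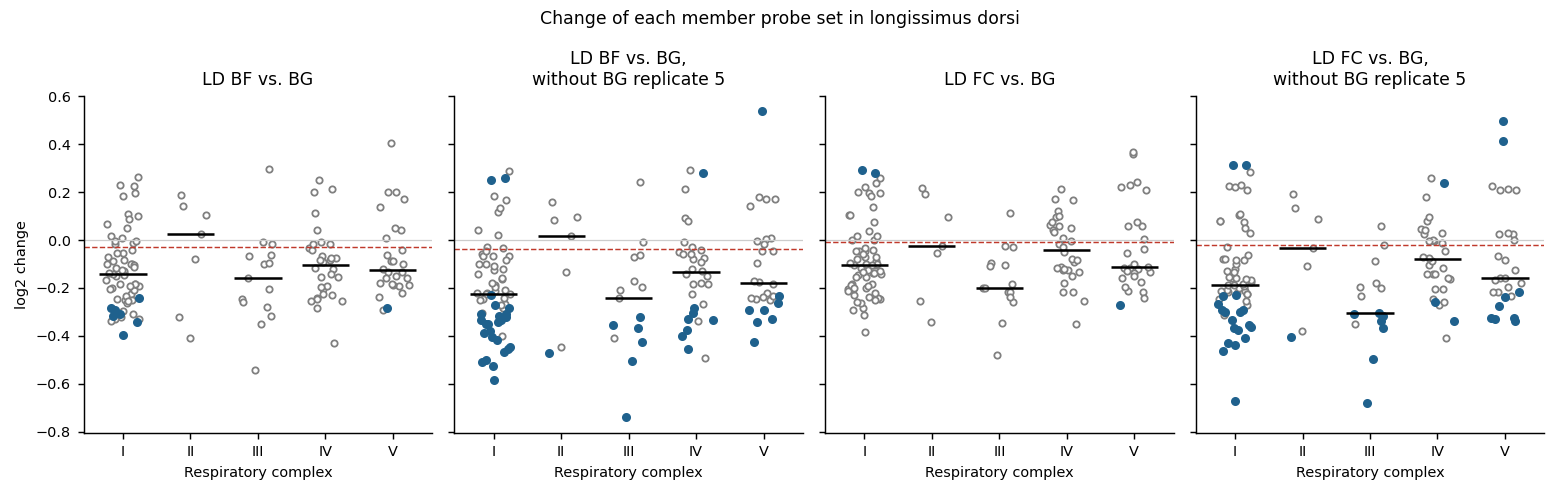
Change of each member in LD (y axis, log2), by complex, for BF against BG and FC against BG, each with all arrays and without LD BG replicate 5. Each dot is a probe set, filled where limma gave an adjusted p under 0.05; black lines are the medians of each complex and the dashed red line is the median of all 22626 probe sets. Without the array 48 members are called in BF against BG, against 8 with it, and 39 in FC against BG, against 3 with it, and the complex II medians are 0.03 with all arrays in BF against BG and -0.03 in FC against BG.

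The comparison of both ground groups asked whether the habitat alone accounted for a difference. It shares the 5 LD BG arrays with the comparison above, so the values are given side by side and are not a repeat of it. In FC against BG, 3 members were called with all arrays, 2 higher and 1 lower, against 8.95% of all probe sets, and 36 members (24.5%) had an unadjusted p under 0.05, the same share as of all probe sets. The median change was -0.10, against -0.01 over all probe sets. The medians were -0.10, -0.03, -0.20, -0.04 and -0.12 for complexes I to V. Both higher calls were probe sets of Ndufa12, an accessory subunit of complex I: 1433513_x_at read 12.58, 12.59, 12.74, 12.54 and 12.60 in FC, against 12.19, 12.30, 12.46, 12.23 and 12.41 in BG, with no overlap (0.29 ± 0.07 (SE), adjusted p = 0.0181 by limma). In that direction 2 members and 949 of all 22626 probe sets had no overlap. The lower call was Atp5l, the g subunit of ATP synthase, at -0.27 ± 0.08 (adjusted p = 0.0406). Quantile normalization within the muscle left 6 higher and 0 lower calls, and centring each array 1 higher and 1 lower.

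Without LD BG replicate 5, 39 members were called in FC against BG, 34 lower and 5 higher, against 16.2% of all probe sets in either direction and 5.69% lower. The median was then -0.16, against -0.02 over all probe sets. The same array thus moved both comparisons with BG, and without it Ndufb7 (-0.35), Ndufb1 (-0.44), Sdhd (-0.41), Ndufs4 (1448959_at, -0.46) and Uqcr10 (1434340_at, -0.68) were lower in FC as well. Cox7a2l did not pass there, and the sign of its value rested on that array: 1432263_a_at gave -0.07 (adjusted p = 0.611) without it and 0.10 (adjusted p = 0.702) with all arrays. The small count with all arrays also rested on single arrays: 0 members were called without BG replicate 1, BG replicate 4 or FC replicate 3, 1 without BG replicate 2 or FC replicate 2, and 5 without BG replicate 3 or FC replicate 4.

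Flight against the animal facility left little in LD. In BF against FC, 1 of 147 members was called, against 3.66% of all probe sets, and 5 (3.4%) had an unadjusted p under 0.05, against 15.9% of all probe sets. The median change was -0.04, against -0.03 over all probe sets. The member was a dim probe set of Atp5c1, the gamma subunit of ATP synthase (1438809_at): it read 5.89, 5.53, 5.74, 5.56 and 5.46 in BF, against 5.69, 6.03, 6.12, 6.35 and 6.27 in FC, and the groups overlapped (-0.46 ± 0.13 (SE), adjusted p = 0.0434 by limma). The bright probe set of that gene was not called. Without LD BG replicate 5, whose values enter this comparison only through the shared spread, 4 members were called lower: that probe set and 3 of Cox7a2l. The share of all probe sets called in that fit is not given here, so the 4 are not set against a background.

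In the tongue, a muscle that works against food and not against gravity, 1 member was called in BF against BG. It was Ndufa7 again, against 0.826% of all probe sets, and 18 members (12.2%) had an unadjusted p under 0.05, against 15.4% of all probe sets. Its probe set 1436567_a_at read 11.30, 11.55 and 11.09 in BF, 11.08 and 11.17 in FC, and 11.88, 11.85 and 11.81 in BG. All BF and FC arrays lay below all BG arrays. The BF minus BG difference was -0.53 ± 0.12 (SE, adjusted p = 0.0332 by limma), and the same probe set had -0.31 in LD (adjusted p = 0.0351). In TN BF against BG, 2001 of all 22626 probe sets and 21 of 147 members were lower with no overlap. In TN FC against BG these counts were 4614 and 76. Without TN BF replicate 1 or 3 or TN BG replicate 1 or 2, 0 members were called, and without TN BF replicate 2, 7. The median of the members was -0.08, against 0.02 over all probe sets, and it came to -0.0016 after quantile normalization within the muscle. Centring each array turned the median of all probe sets to -0.00766 in this comparison and to -0.03 in TN FC against BG. TN BF against FC called 0 members by limma, against 2.24% of all probe sets, with 12 (8.16%) at an unadjusted p under 0.05, against 16.1% of all probe sets, and a median of 0.05.

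The ground groups differed in more TN members than BF and BG did by count, a contrast between counts that was not tested, and FC had only 2 arrays. In TN FC against BG, 12 members were called, 11 lower and 1 higher, against 9.45% of all probe sets in either direction and 4.33% lower. An unadjusted p under 0.05 was found for 34 members (23.1%), against 23.3% of all probe sets. The 11 are 7.48% of the members: 6 of complex I, 1 of complex II, 2 of complex III, 0 of complex IV and 2 of complex V. Quantile normalization within the muscle gave 7 lower and 3 higher. The count without TN FC replicate 1 was 0, without FC replicate 2 or BG replicate 2 it was 3, and without BG replicate 1 it was 5. Median changes were -0.19, -0.05, -0.25, -0.06 and -0.08 for complexes I to V, and 0.02 over all probe sets.

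The members lower in TN FC came from all complexes but IV. Uqcr10 (1434341_x_at) read 9.73 and 9.28 in FC, against 10.24, 10.65 and 10.32 in BG, a difference of -0.90 ± 0.24 (SE, adjusted p = 0.0223 by limma). Atp5l read 12.44 and 12.59 in FC, against 13.11, 13.07 and 13.03 in BG (-0.55 ± 0.12, adjusted p = 0.00612). Ndufa7 was called on 3 probe sets, of which 1436567_a_at differed by -0.72 ± 0.13 (adjusted p = 0.0022). None of these pairs of groups overlapped. Sdhd (1428235_at) read 10.789 and 11.003 in FC, against 11.53, 11.67 and 11.54 in BG (-0.69 ± 0.18, adjusted p = 0.0193), again with no overlap. With 2 against 3 arrays this was common. Of all 22626 probe sets, 4614 were lower and 5519 higher with no overlap, and of the 147 members 76 and 17. Ndufb2 (-0.69), Ndufs4 (1448959_at, -0.63), Ndufv2 (-0.48), Uqcrh (-0.46) and Atp5pb (-0.53) were the other genes called lower. The higher call was a dim probe set of Ndufa12 (1425919_at, 0.98, adjusted p = 0.00568) at a level of 4.66 in FC and 3.68 in BG. Other lists moved with this comparison. Fibroblast markers had a mean log2 level of 11.2 to 11.3 in FC, against 10.7 to 10.8 in BG (median change 0.43, 5 of 6 positive, 0 called). Of 3 Schwann cell markers, all were positive and 1 was called higher (median 0.71), and of 6 skeletal muscle markers 2 were called higher (median 0.13). Of 14 slow and oxidative fibre genes, 13 had negative changes and 0 were called (median -0.81). The part of these cells and fibres in the member values was not tested.

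The change with flight was also set against each other in the muscles. For BF minus BG in LD less the same in TN, 0 members were called by limma, against 0.172% of all probe sets, and 6 (4.08%) had an unadjusted p under 0.05, against 12.1% of all probe sets. The median was -0.02, against -0.03 over all probe sets. The widest differences were 0.63 for Ndufb6 (1434056_a_at), 0.62 for Atp5o (1437164_x_at) and 0.56 for Cox7c on the positive side, and -0.42 for Ndufb1, -0.40 for Ndufa12 (1425919_at) and -0.40 for Uqcrq (1437134_at) on the negative side. Without LD BG replicate 5, 2 members were called, Ndufb7 at -0.50 and Cox5a at 0.50. The share of all probe sets called in that fit is not given here, so the 2 are not set against a background.

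LD and TN differed from each other far more than housing did. In BF, 51 members were called higher and 5 lower in LD than in TN, against 45.8% of all probe sets called and 27.5% higher. In FC, 67 were higher and 5 lower, against 46.8% called and 27.7% higher, and in BG, 59 were higher and 6 lower, against 54.1% called and 34.3% higher. The shares of members called higher were 34.7% in BF, 45.6% in FC and 40.1% in BG. Median differences of the members were 0.22, 0.32 and 0.22 in BF, FC and BG, against 0.10, 0.13 and 0.18 over all probe sets. Centring each array on its median raised the median of all probe sets to 0.19, 0.24 and 0.26. It subtracts 1 value per array, so it could not change the 0.12, 0.19 and 0.04 by which the member median lay above that. Quantile normalization within each muscle could change this distance, and gave 0.06, 0.19 and 0.10 in BF, FC and BG. Leaving out LD BG replicate 5 gave 86 higher (58.5%) and 7 lower calls in BG, against 37.2% of all probe sets higher, and a member median of 0.30, against 0.19. Without TN BF replicate 3 the calls in BF were 35 in all, and without TN FC replicate 1 those in FC were 46.

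Complexes I and II had the largest shares of members higher in LD, and the lower calls shared by all housings lay in complex IV. In all 3 housings at once, 37 members (25.2%) were higher in LD, against 18.2% of all probe sets, and 4 (2.72%) were lower, against 14.1%. Of the 37, 26 were of complex I (40% of its 65), 3 of complex II (42.9% of 7), 2 of complex III (13.3%), 3 of complex IV (9.38%) and 3 of complex V (10.7%), and all 4 lower members were of complex IV (12.5% of 32). When LD BG replicate 5 was left out, 35 members of complex I (53.8%), 3 of complex II, 2 of complex III, 3 of complex IV and 6 of complex V (21.4%) were higher in all housings, and the lower count was again 4, all of complex IV. Median differences in BF, FC and BG were 0.30, 0.41 and 0.34 for complex I, 0.34, 0.36 and 0.31 for complex II, 0.19, 0.35 and 0.22 for complex III, 0.04, 0.08 and 0.11 for complex IV, and 0.09, 0.10 and 0.06 for complex V. The BG medians without LD BG replicate 5 were 0.41, 0.42, 0.30, 0.12 and 0.12 for complexes I to V. The complex I members with the largest differences in BG were Ndufs4 (1418117_at, 0.96), Ndufb1 (0.86) and Ndufa10 (1418068_at, 0.79). Sdhb, the iron-sulphur subunit of complex II, read 12.78 to 13.20 in LD BF and 12.30 to 12.56 in TN BF, 12.86 to 13.24 in LD FC and 12.40 and 12.49 in TN FC, and 12.91 to 13.29 in LD BG and 12.49 to 12.73 in TN BG, with no overlap within a housing (BG difference 0.55 ± 0.12 (SE), adjusted p = 0.000491 by limma; 0.60 without LD BG replicate 5). Of all 22626 probe sets, 6275 in BF, 7949 in FC and 6175 in BG were higher in LD with no overlap. Of the members, 41, 89 and 39 were. Both probe sets of Sdha, the catalytic subunit, were higher in each housing, by 0.34 to 0.58. In BG the anchor subunits gave 0.31 and 0.14 for Sdhc, of which the first was called, and 0.31 and 0.28 for Sdhd, neither of which was called. The brighter Sdhd probe set was called without LD BG replicate 5 (1428235_at, 0.46, adjusted p = 0.000678 by limma).

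Uqcr10 had the widest difference of any member. Its probe set 1434340_at was higher in LD by 1.44 in BF, 1.90 in FC and 1.54 in BG (in BG 11.4 ± 0.48 in LD, n = 5, and 9.87 ± 0.06 in TN, n = 3, SD; adjusted p = 4.26e-06 by limma; 1.73 without LD BG replicate 5). The other probe sets differed in size: 1434341_x_at gave 1.24, 1.61 and 1.05, while 1424364_a_at, the brightest, gave 0.16, 0.56 and 0.39. The size of the difference for this gene therefore depends on the probe set. Ndufs4 also ranged from 0.24 to 0.96 over its 3 probe sets in BG, and Atp5c1 had -0.43 on its dim probe set and 0.25 on the bright one.

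**Figure D4:**
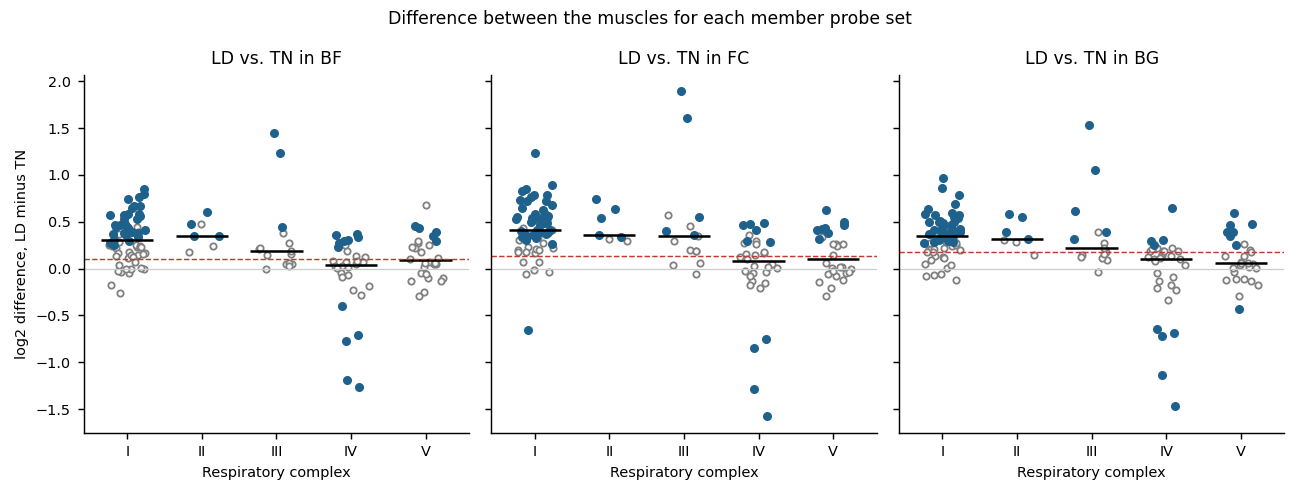
Difference of each member between LD and TN (y axis, log2, LD minus TN), by complex, in BF, FC and BG mice. Each dot is a probe set, filled where limma gave an adjusted p under 0.05; black lines are medians of each complex and the dashed red line is the median of all probe sets. Complex I medians of 0.30, 0.41 and 0.34 lie above the dashed line, and the probe sets furthest below 0 are Cox6a1 and Cox8a of complex IV.

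The 4 members of complex IV that were lower in all housings were probe sets of Cox6a1 and Cox8a, isoforms of most tissues. Their muscle partners Cox6a2 and Cox8b were higher. In BF and in BG, the lower calls of complex IV were 5 probe sets of 3 genes, so they went beyond these isoforms. Cox6a1 (1417417_a_at), the form of COX6A found in most tissues, read 12.31, 11.76, 11.46, 11.63 and 11.89 in LD BF and 13.09, 12.84 and 13.06 in TN BF, a difference of -1.19. It read 12.03, 11.58, 11.87, 12.06 and 12.12 in LD FC and 13.25 and 13.19 in TN FC (-1.28), and 11.89, 11.91, 12.20, 11.73 and 12.08 in LD BG and 13.17, 13.00 and 13.14 in TN BG (-1.14 ± 0.15 (SE), adjusted p = 1.62e-06 by limma). Every LD array lay below every TN array. Within BF, FC and BG, 4011, 5004 and 3929 of all 22626 probe sets were lower in LD with no overlap, as were 5, 5 and 6 members. The second Cox6a1 probe set gave -1.27, -1.58 and -1.47 in BF, FC and BG. The BG differences without LD BG replicate 5 were -1.17 and -1.51 for Cox6a1, -0.64 for Cox8a (1416112_at), 0.68 for Cox6a2 and 0.39 for Cox8b, each called. Cox6a2, the heart and muscle form, went the other way. It lay between 13.10 and 13.43 in LD BF, 13.19 and 13.52 in LD FC and 13.27 and 13.52 in LD BG, and between 12.76 and 13.00 in TN over all housings, with differences of 0.37, 0.49 and 0.65 (adjusted p = 0.00308, 0.00099 and 8.36e-06).

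The COX8 pair showed the same opposite signs. Cox8a (1416112_at), the form of most tissues, read 9.40 to 9.89 in LD BF and 10.23 to 10.47 in TN BF, 9.47 to 9.79 in LD FC and 10.33 and 10.42 in TN FC, and 9.68 to 9.98 in LD BG and 10.49 to 10.55 in TN BG. No LD array reached a TN array, and the differences were -0.71, -0.75 and -0.68 in BF, FC and BG (BG adjusted p = 1.27e-05 by limma). Probe set 1448222_x_at gave -0.77, -0.84 and -0.72, while the third, at a log2 level of 4.92, was not called. Cox7c had -0.64 in BG on a dim probe set (1459884_at, adjusted p = 0.000865) and -0.23 on the other (not called). Cox8b differed by 0.30, 0.42 and 0.31 (adjusted p = 0.0153, 0.00459 and 0.0132). In BG its 5 LD arrays read 13.57, 13.58, 13.66, 13.62 and 13.20 and its 3 TN arrays 13.24, 13.21 and 13.21, so only LD BG replicate 5 was within the TN range or below it.

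The pattern did not extend to every isoform pair. Cox7a1, the heart and muscle form of COX7A, differed by -0.23, -0.21 and -0.34 in BF, FC and BG and was not called. In BG the partner Cox7a2 gave 0.08 and 0.04 on its 2 probe sets, Cox4i1 0.10, Cox4i2 0.14, Cox6b1 0.19 and 0.10, Cox6b2 -0.17 and Ndufa4 0.12, and none of them was called. Among the genes of the c subunit, Atp5g2 (1415980_at, 0.59) and Atp5g1 (0.39) were called higher in LD BG than in TN BG, and Atp5g3 (-0.11) was not called. Tissue makeup moved with these differences. The 8 epithelium markers averaged 4.90 to 5.35 in log2 level on LD arrays, against 11.5 to 11.8 on TN arrays, and the 6 skeletal muscle markers 14.1 to 14.2, against 13.5 to 13.9. Of 4 adipocyte markers, 4, 3 and 3 were higher in LD in BF, FC and BG (medians 3.01, 2.43 and 2.67), and of 3 Schwann cell markers 1, 3 and 1 were lower (medians -0.35, -0.80 and -0.32). The part of the tongue's epithelium, of fat and of nerve in the levels of Cox6a1, Cox8a and the other members was not tested.

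**Figure D5:**
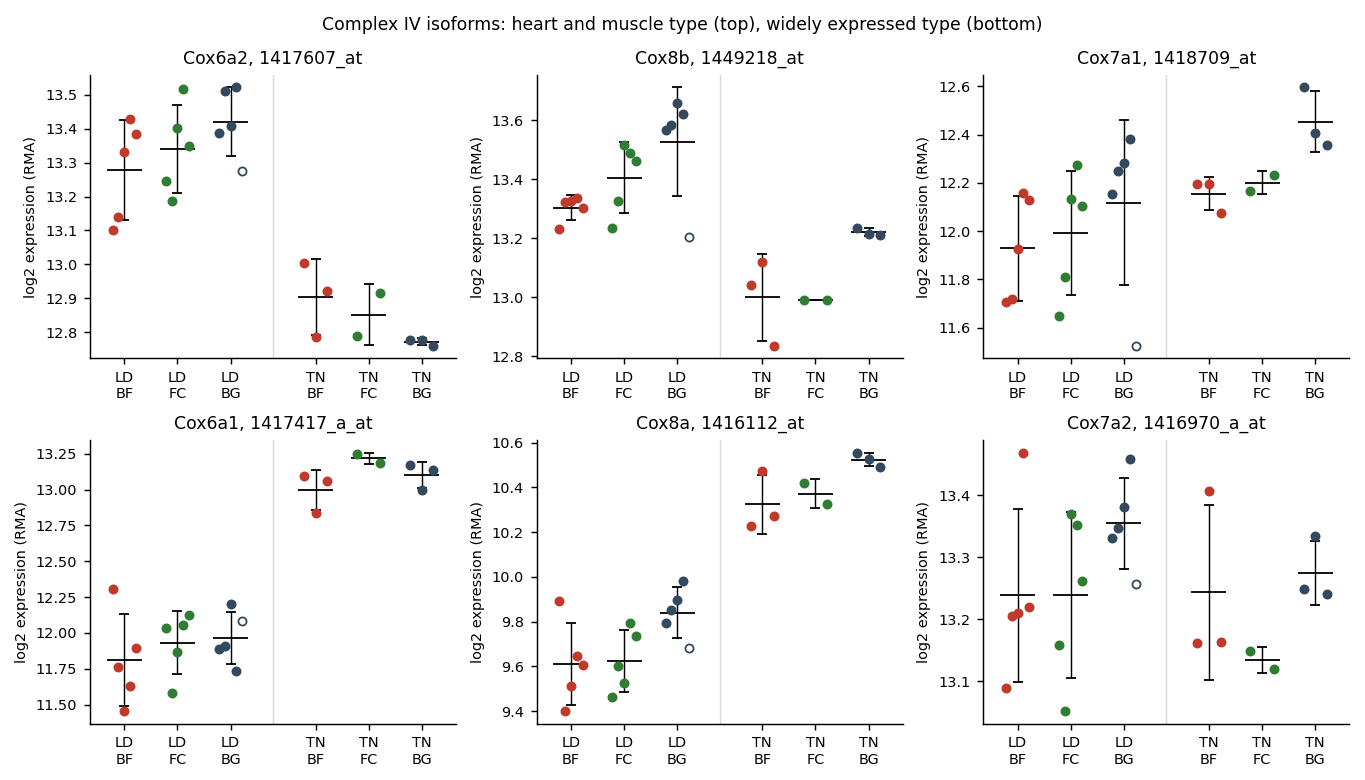
Log2 levels by array of 3 heart and muscle isoforms of complex IV (Cox6a2, Cox8b and Cox7a1, top) and their partners of most tissues (Cox6a1, Cox8a and Cox7a2, bottom). Dots are arrays in the order BF, FC, BG for LD and then TN, lines are means and bars SD; the open circle is LD BG replicate 5. LD lies below TN in every array for Cox6a1 and Cox8a and above it for Cox6a2, while Cox7a1 and Cox7a2 overlap between the muscles.

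Promoters of the genes on which these results turn are shown so that the isoform pairs and the housing genes can be compared at the start of transcription. RefSeq held promoter windows (250 bases before to 50 after the start, build GRCm38.p6) for 64 of the 78 genes, and Cox6a2 was not among them. The motifs searched, on both strands, were the NRF1 site (GCGCA, any base, then GCGC), the ETS site bound by GABP (CCGGAAG), the YY1 site (CAAGATGGC), the estrogen-related receptor site (TCAAGGTCA) and the TATA box (TATAAA), the last added after some of the sequences had been read. Capitals mark the matches, which describe the letters and say nothing of binding.
Ndufa7 (chr17:33824322-33824621, + strand, the first of 2 windows of the gene): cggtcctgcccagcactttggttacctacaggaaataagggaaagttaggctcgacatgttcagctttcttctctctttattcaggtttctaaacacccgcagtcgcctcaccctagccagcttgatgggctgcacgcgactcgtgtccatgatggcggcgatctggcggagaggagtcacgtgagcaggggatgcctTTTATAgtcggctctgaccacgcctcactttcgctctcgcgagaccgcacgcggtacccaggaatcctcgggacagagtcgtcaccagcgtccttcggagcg
Sdhd (chr9:50603800-50604099, - strand): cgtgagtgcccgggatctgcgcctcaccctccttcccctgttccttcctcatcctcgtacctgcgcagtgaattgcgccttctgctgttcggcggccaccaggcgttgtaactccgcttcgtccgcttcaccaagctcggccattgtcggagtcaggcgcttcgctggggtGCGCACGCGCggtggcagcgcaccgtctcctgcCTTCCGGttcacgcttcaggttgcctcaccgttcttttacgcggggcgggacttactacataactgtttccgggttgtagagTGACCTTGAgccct
Cox6a1 (chr5:115348909-115349208, - strand): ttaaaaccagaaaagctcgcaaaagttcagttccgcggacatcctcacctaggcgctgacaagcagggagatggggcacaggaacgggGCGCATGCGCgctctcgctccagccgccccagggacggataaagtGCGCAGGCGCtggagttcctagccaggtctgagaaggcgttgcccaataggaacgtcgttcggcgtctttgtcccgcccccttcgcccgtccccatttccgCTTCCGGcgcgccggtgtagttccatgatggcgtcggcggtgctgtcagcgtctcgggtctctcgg
Cox8a (chr19:7217567-7217866, - strand): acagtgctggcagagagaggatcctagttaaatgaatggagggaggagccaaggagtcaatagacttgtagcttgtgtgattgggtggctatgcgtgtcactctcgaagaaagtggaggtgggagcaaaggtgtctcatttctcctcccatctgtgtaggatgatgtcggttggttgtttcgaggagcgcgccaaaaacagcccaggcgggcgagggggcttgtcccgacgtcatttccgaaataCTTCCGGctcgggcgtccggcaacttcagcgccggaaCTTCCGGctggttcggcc
Cox8b (chr7:140900397-140900696, - strand): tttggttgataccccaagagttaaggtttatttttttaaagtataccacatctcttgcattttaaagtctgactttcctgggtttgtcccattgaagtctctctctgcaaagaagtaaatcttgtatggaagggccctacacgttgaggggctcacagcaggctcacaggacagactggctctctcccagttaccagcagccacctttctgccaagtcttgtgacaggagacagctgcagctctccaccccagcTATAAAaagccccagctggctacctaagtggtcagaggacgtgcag
The Cox6a1 window held 2 NRF1 matches and 1 ETS match, that of Cox8a 2 ETS matches, and that of Cox8b 1 TATAAA match and no match to the other motifs. The Sdhd window held 1 match each to NRF1, ETS and the estrogen-related receptor site, and that of Ndufa7 1 TATAAA match on the other strand. Among the 64 genes, 14 (21.9%) held an NRF1 match, against 5.19% of the 27025 genes with a window, and 17 (26.6%) an ETS match, against 9.93%. YY1 matched in 5 (7.81%, against 1.42%), the receptor site in 2, Sdhd and Atp5g3 (3.12%, against 0.466%), and TATAAA in 7 (10.9%, against 15.7%).

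Other genes of the pathway were counted from lists, with 1 probe set per gene. Of 35 assembly factors measured, which build the complexes without being part of them, 7 were lower and 2 higher in LD BF than in LD BG; over all 12393 genes, 555 were lower and 751 higher. Cox19, a copper-handling factor of complex IV, fell by 1.01 (adjusted p = 4.86e-05 by limma), Coa6 by 0.51, Sdhaf2 by 0.48 and Uqcc2 by 0.41, and Ecsit was higher by 0.26. In LD FC against BG 4 were lower and 1 higher, against 272 and 1000 of all genes, and Cox19 fell by 0.61 there. When LD BG replicate 5 was left out, 10 were lower and 1 higher in BF against BG (1043 and 1127 of all genes), and 11 were lower and 1 higher in FC against BG (746 and 1462 of all genes). In TN FC against BG 3 were lower (518 of all genes), Cox16 (-0.83), Sdhaf2 (-0.75) and Acad9 (-0.52). Between the muscles, 24, 26 and 26 of the 35 were higher in LD in BF, FC and BG, and 1, 0 and 1 lower, with medians of 0.50, 0.72 and 0.60. Of all 12393 genes, 3507, 3502 and 4367 were higher in LD in BF, FC and BG, and 2479, 2554 and 2650 were lower. The BG count was 28 of the 35 without LD BG replicate 5. Of 16 enzymes of the tricarboxylic acid cycle, 0 were called in LD BF against BG by limma, and Ogdh alone was called, higher, in LD FC against BG. Suclg1 was called lower in both comparisons without LD BG replicate 5 (-0.32 in each), and Pdhb in FC against BG (-0.35). Of 8 carriers of ATP and phosphate and mitochondrial creatine kinases, Slc25a5, an ATP/ADP carrier of most tissues, was lower in LD BF than in LD BG (-0.53, adjusted p = 0.0105; -0.60 without LD BG replicate 5) and lower in LD than in TN in BG (-1.22). Atpif1, the inhibitor of complex V, lies outside the rule and was lower in LD than in TN in BG at -1.76 (adjusted p = 3.56e-07).

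Among 16 regulators of respiratory genes, 2 were higher in LD BF than in LD BG: Polrmt, the mitochondrial RNA polymerase (0.61, adjusted p = 0.00189 by limma), and Pprc1, a coactivator (0.56, adjusted p = 0.00357), where 751 of all 12393 genes were higher. In LD FC against BG, Polrmt (0.61), Pprc1 (0.51), Ppargc1a, which encodes the coactivator PGC-1alpha (0.61), and Esrra, its partner receptor (0.34), were higher, where 1000 of all genes were. Yy1, which encodes the YY1 factor, was also called higher in both comparisons without LD BG replicate 5 (0.60 in BF and 0.38 in FC), and Esrra was not called (0.31, adjusted p = 0.0537). In LD BF against FC, 3 were lower, where 228 of all genes were lower and 154 higher: Ppargc1a (-0.78, adjusted p = 0.00377), Ppara (-1.04) and Esrra (-0.44). The member median in that comparison was -0.04. Of 14 slow and oxidative fibre genes, Casq2 (-1.14) and Myoz2 (-0.88) were lower in LD BF than in LD BG, and the mean log2 level of the 14 ran from 11.1 to 12.2 in LD BF, against 11.7 to 12.6 in LD BG. The median of the 14 was -0.44 there, with 11 negative. In LD FC against BG 3 were lower, Casq2 (-0.98), Myoz2 (-0.99) and Cd36 (-0.71), with a median of -0.67 and 13 of 14 negative. The lower counts were again 2 and 3 without LD BG replicate 5, with medians of -0.32 and -0.53. Between the muscles, 11, 11 and 10 of the 14 were higher in LD in BF, FC and BG, as were 16, 14 and 15 of 16 fast glycolytic fibre genes. Of all 12393 genes, 3507, 3502 and 4367 were. In BG the list counts were 10 and 15 also without LD BG replicate 5, where 4719 of all genes were higher. The part of fibre makeup in the member differences was not tested.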

How the data were processed

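Total RNA of LD and TN was hybridised to Affymetrix GeneChip mouse expression arrays, 1 per sample (LD: 5 BF, 5 FC and 5 BG; TN: 3 BF, 2 FC and 3 BG). The deposited values are log2 signals that the authors normalized with the Robust Multichip Average (RMA) in Partek Genomics Suite, a step that corrects background, makes the distributions of the arrays alike and sums the probes of a probe set. Values ran from 2.24 to 14.5 on 22626 probe sets, and 0 other value columns were present. The platform annotation named 1 gene for 20380 probe sets, several for 691 and none for 1555. The number of arrays limits the precision.

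The values were used as deposited. A linear model of 6 groups over the 23 arrays was fitted with limma 3.58.1 (lmFit and eBayes, R 4.3.3), with 17 residual and 5.12 prior degrees of freedom, and p-values were adjusted over all 22626 probe sets of each comparison (Benjamini-Hochberg). A probe set was called at adjusted p under 0.05, the false discovery rate of 5% named in the study's methods. The labels do not say that each sample came from a separate mouse, so p-values measure the spread between these samples. Log2 changes carry the standard error of the model. Same-numbered TN BF and TN BG arrays deviated together (r of 0.167, 0.383 and 0.203 over all probe sets), so a fit with the number as a block was set beside that comparison; no source ties the numbers to a litter or day.

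The members and the gene lists were chosen with earlier results of these data known. Named members were the 2 smallest adjusted p of each complex in each comparison within a muscle that called members, all Sdh probe sets, the isoform pairs, the 5 largest differences each way between the muscles in BG, the 3 largest and 3 smallest differences of the interaction, and the genes whose probe sets differed most. A few further members called in the fit without LD BG replicate 5, or lower in every BF array, were named after their values were seen. Lists took 1 probe set per gene (12393 genes). The fit was tested on simulated data. Alternatives were each muscle fitted alone, no moderation, a trended and robust prior, only the probe sets brighter than the median one, quantile normalization within each muscle, centring of each array, array weights, the array of widest spread left out in each LD group, 1 probe set per gene, replicate blocks, and each array left out in turn.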

Additional observations from a re-analysis of the deposited data

Results flagged for a closer look

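In groups of 5 LD samples, 1 array was checked for lying far from the other 4 (a gap above Dixon's 95% limit) in the named members and in the complex means. Of 210 groups tested, 18 (8.57%) held such an array, and 13 of the 18 arrays were LD BG replicate 5, always as the lowest. Chance would give about 1 in 20 for independent groups. These groups were read on the same 15 LD arrays, and some are probe sets of 1 gene or means of members. Their share can therefore not be set against that rate.

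For complex I, LD BG replicate 5 read 12.15 for Ndufa7 (1450818_a_at; the other 4 BG arrays 12.48 to 12.53), 7.522 for Ndufb1 (8.049 to 8.231), 11.56 for Ndufb2 (1416834_x_at; 12.31 to 12.55) and 10.86 for Ndufs4 (1448959_at; 11.63 to 11.81). For complex II it read 11.28 for Sdhd (1428235_at; 11.97 to 12.13). For complex III it read 12.2 for Uqcr10 (1424364_a_at; 12.68 to 12.84) and 10.84 for its probe set 1434341_x_at (11.52 to 11.79), and the mean of complex III was -0.07358 (0.3543 to 0.485). For complex IV it read 13.2 for Cox8b (13.57 to 13.66), 12.74 for Cox6b1 (1416565_at; 13.09 to 13.19), 11.53 for Cox7a1 (12.15 to 12.38), 9.427 for Cox7a2l (1432263_a_at; 10.22 to 10.43) and 10.09 for its probe set 1432264_x_at (10.71 to 10.9).

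The other 5 lay on other arrays. LD BG replicate 4 was the highest of its group for the second Sdhd probe set (1437489_x_at), at 8.104, with the others at 7.397 to 7.439. LD BF replicate 1 was the lowest for Sdha (1426689_s_at), at 12.29 (12.6 to 12.72), and for Atp5g1, at 12.31 (12.54 to 12.61). LD BF replicate 3 was the lowest for Ndufa7 (1455749_x_at), at 8.597 (8.713 to 8.75). LD FC replicate 3 was the highest for Ndufa12 (1433513_x_at), at 12.74 (12.54 to 12.6).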

How the results depend on the processing

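No named member that passed the test in either fit changed direction under an alternative. Of 5575 values of named members under an alternative, 48 (of 19 results) had another sign than with all arrays as deposited, none of them past the test and each at most 0.0874 in size as deposited. This tally covers each member only in the comparisons for which the naming rule chose it. The sign change of Cox7a2l in LD FC against BG, given above, lies outside it. The mean of complex II, LD FC minus LD BG (-0.0243), was 0.00202 with 1 probe set per gene, and the mean of complex IV, LD BG minus TN BG (-0.0624), was 0.0239 after centring. The counts of members called moved as follows. The share of all probe sets called under each alternative is not set beside them, and that share moved too. In LD BF against BG it was 10.2% with all arrays and 17.1% without LD BG replicate 5. The counts are therefore not read as results about the members. In LD BF against BG (8 called), each muscle fitted alone gave 3, a trended and robust prior 13, only the brighter probe sets 16, array weights 50, leaving out the widest-spread array of each LD group 43, 1 probe set per gene 4, and leaving out 1 array 1 to 48. In LD BF against FC (1), array weights and leaving out the widest-spread arrays gave 4 each, fitting alone, no moderation, brighter probe sets, quantile normalization and 1 probe set per gene 0 each, and leaving out 1 array 0 to 4. In LD FC against BG (3), fitting alone gave 1, no moderation 6, brighter probe sets 8, quantile normalization 6, array weights 18, leaving out the widest-spread arrays 27, and leaving out 1 array 0 to 39. In TN BF against BG (1), fitting alone, quantile normalization and 1 probe set per gene gave 0, array weights 10, and leaving out 1 array 0 to 7. In TN BF against FC (0), array weights gave 6, leaving out the widest-spread arrays 2, and leaving out 1 array 0 to 2. In TN FC against BG (12), array weights gave 37, 1 probe set per gene 6, and leaving out 1 array 0 to 17. Between LD and TN, 1 probe set per gene gave 32 in BF (56 called), 43 in FC (72) and 39 in BG (65), and leaving out 1 array 35 to 66, 46 to 85 and 50 to 93. For BF minus BG in LD less TN (0), array weights gave 3, leaving out the widest-spread arrays 1, and leaving out 1 array 0 to 2. Array weights gave LD BG replicate 5 the lowest weight of all arrays (0.263), and the widest-spread arrays left out included it. These 2 settings are therefore not separate from leaving out that array. Both 1 probe set per gene and only the brighter probe sets test fewer probe sets. Other causes were not tested. Of 5962 further values under an alternative (single members, complex means and counts over all probe sets), 5554 kept their call or stayed close, 220 lost it, 115 gained it and 73 means or counts moved.

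The replicate numbers were checked for pairing: over 30 same-numbered pairs of arrays the correlation of deviations ran from -0.218 to 0.545 and passed 0.1 in 13. Every pair passed it in TN BF against BG alone, where the block for the number left 1 call, that of Ndufa7 (1436567_a_at, adjusted p = 0.0407 by limma). Some pairs deviated together in other comparisons too. In LD BF against FC, numbers 1 to 5 gave 0.545, -0.0745, 0.311, 0.417 and 0.109, and the block count for that comparison is not given here. What samples of the same number share was not stated for any comparison. The block gave 7 calls in LD BF against BG, 3 in LD FC against BG, 14 in TN FC against BG and 46, 63 and 59 between the muscles in BF, FC and BG. A random block for housing and number (correlation -0.0231) gave 8, 3, 12, 56, 72 and 64. Signal over background limited none of the bright members, but the 13 members below the median level of all probe sets, and every change in TN FC, which rests on 2 arrays, are less certain.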
